A study of Mus musculus with 8 samples.

Results

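Cdk13 and 8 partner genes that encode the transcriptional cyclin-dependent kinases (CDKs), their cyclins and an assembly factor were examined in macrophages of mouse pancreatic islets. The members are Cdk13, Cdk12, Ccnk, Cdk9, Ccnt1, Ccnt2, Cdk7, Ccnh and Mnat1. They were found by their symbols in the deposited table, where each of the 9 symbols stood in 1 row of 48440, and all 9 passed the filter on low counts, which kept 10129 genes. Cdk13 led to the choice of this gene group because of its place in the diet comparison itself, rank 10 of 10129 by p-value, and the others were taken as its relatives and partners. The diet differences of the members are therefore given as a description. Calls of members in the fits over all genes are stated, but they are not independent evidence.

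The cells were wild-type CD11b+ F4/80+ macrophages from male C57BL/6J mice aged 16 weeks. One group of mice had eaten a high-fat diet (HFD) for 8 weeks, with 45% fat, 35% carbohydrate and 20% protein at 19.67 kJ/g. The other group had stayed on chow over the same 8 weeks, with 8% fat, 71% carbohydrate and 21% protein at 10.88 kJ/g. There were 4 libraries for HFD and 4 for chow. Extracts of 2 mice were pooled in each, so that n counts pools rather than mice. Total RNA, 500 pg per library, was amplified to cDNA before sequencing.

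Library totals ranged from 4532503 to 5917920 counts in HFD and from 4288665 to 6391247 counts in chow. Mitochondrial transcripts took 22.4% to 28.0% of the counts in HFD and 23.8% to 27.1% in chow. Most of these were mitochondrial ribosomal RNA, at 19.6% to 23.7% of the counts in HFD and 20.2% to 23.6% in chow. The sort marker transcripts were present in every library: Adgre1, which encodes F4/80, was at 319 to 496 CPM (counts scaled to the effective total of the library) in HFD and 413 to 595 CPM in chow, and Itgam, which encodes CD11b, was at 196 to 407 CPM in HFD and 223 to 372 CPM in chow. Summed transcripts of the 10 macrophage markers were at 4716 to 5903 CPM in HFD and 4900 to 6453 CPM in chow. All 10 stellate and fibroblast markers were also detected, at a sum of 105 to 421 CPM in HFD and 23.8 to 132 CPM in chow, with HFD replicate 8 alone inside the chow range. Sums for acinar cells were at 36.2 to 1533 CPM in HFD and 0.223 to 3227 CPM in chow, and those for endocrine cells were at 903 to 1769 CPM in HFD and 447 to 1727 CPM in chow. The B cell sum was at 206 to 297 CPM in HFD and 248 to 442 CPM in chow, from 3 of 6 markers, with Cd79a and Pax5 among those at 0. Neutrophil and monocyte markers summed to 766 to 1173 CPM in HFD and 719 to 1111 CPM in chow. That sum came from 3 of 7 markers, with S100a8 and S100a9 among those at 0. Dendritic cell markers summed to 17.1 to 94.9 CPM in HFD and 44.7 to 140 CPM in chow. Bulk RNA cannot tell fewer cells of a type from less RNA per cell.

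These kinases act on RNA polymerase II. CDK7 with cyclin H and the assembly factor MAT1, encoded by Mnat1, forms the CDK-activating kinase, which as part of the general factor TFIIH phosphorylates the tail of the polymerase at initiation and also activates other CDKs. CDK9 with cyclin T1 or T2 is the elongation factor P-TEFb, which releases polymerase paused near the promoter and is held inactive by the 7SK RNA and the HEXIM proteins. CDK12 and CDK13 each bind cyclin K and phosphorylate the polymerase tail during elongation. Together they are known from human and mouse cells to sustain transcription of long genes and of DNA repair genes. In macrophages P-TEFb is known for its part in the rapid induction of inflammatory genes.

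Cdk13 and Cdk12 are paralogs, and a close coding stretch is shown because it bears on whether their reads can be told apart. It is the closest ungapped 60-base window of their local alignment that lies within 1 exon of each gene. Windows across exon junctions were left out. Both stretches lie in exon 10 of the transcript with the longest coding sequence, in GENCODE annotation of GRCm38: Cdk13 at chr13:17728099-17728158 on the minus strand, and Cdk12 at chr11:98240804-98240863 on the plus strand. Of 60 bases 55 are identical, and capitals mark the 5 that differ.
Cdk13: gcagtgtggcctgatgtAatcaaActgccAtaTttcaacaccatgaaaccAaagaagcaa
Cdk12: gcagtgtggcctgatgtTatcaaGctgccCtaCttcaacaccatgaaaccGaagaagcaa
Over a local alignment of 1327 coding bases the 2 genes were 75.4% identical, with a longest identical run of 20 bases. Ccnt1 and Ccnt2 were 74.2% identical over 749 coding bases, again with a longest run of 20. Of the 13502 distinct 50-base words in annotated Cdk13 transcripts 2 (0.0148%) also occurred in another gene, Psmc2 in both cases, and none in Cdk12. The share was 1.15% for Cdk12, 1.69% for Cdk9, 0.0318% for Ccnh and 0 for Ccnk, Ccnt2, Cdk7 and Mnat1. It was 7.50% for Ccnt1, where 600 of 690 shared words belonged to the antisense gene 9330020H09Rik, which held 10.02 counts over all libraries. Only 3 of the 72 member values were not whole numbers.

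Cdk13 (chromosome 13, 17710315 to 17805097, minus strand), an elongation kinase of the cyclin K pair, had the lowest fold change of the members. Its level, scaled by trimmed mean of M-values (TMM), was 92.6, 114, 101 and 88.8 CPM in HFD replicates 5 to 8, against 239, 113, 317 and 247 CPM in chow replicates 1 to 4. All HFD libraries lay in a narrow band, and chow replicate 2 lay in that band too, just below HFD replicate 6, so the groups overlapped by 1 library on each side. The mean was 99.0 ± 11.1 CPM in HFD and 229 ± 84.9 CPM in chow (SD, n = 4 each), a log2 fold change of -1.21 (SE 0.30) in edgeR. In counts, Cdk13 had 470, 661, 482 and 446 in HFD, against 1073, 728, 1540 and 1054 in chow, so that counting error is small beside the spread between libraries. The stellate and fibroblast sum was above the chow range in HFD replicates 5 to 7. With that marker list as a covariate the log2 fold change of Cdk13 was -1.43, with a wider error (SE 0.56). The part of those cells in the difference was not tested.

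Cdk12 (chromosome 11, 98203059 to 98278504, plus strand), the paralog, was at 217, 164, 158 and 150 CPM in HFD, against 175, 152, 186 and 144 CPM in chow. Only HFD replicate 5 stood above the chow range, and the other 3 HFD libraries lay within it. The mean was 172 ± 30.6 CPM in HFD and 164 ± 19.5 CPM in chow (SD, n = 4 each), a log2 fold change of 0.07 (SE 0.25). Its spread within a diet, an SD of 0.21 on the log2(CPM + 1) scale, was small: 4.86% of the 782 genes within 0.5 log2 units of its mean level had a smaller one, and their median SD was 0.40.

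Ccnk (chromosome 12, 108179579 to 108203359, plus strand) encodes cyclin K, the shared partner of both kinases. It was at 19.7, 44.1, 39.1 and 13.1 CPM in HFD, against 124, 31.1, 24.7 and 35.1 CPM in chow. Chow replicate 1 was far above every other library, and the remaining chow libraries lay among the HFD libraries. The log2 fold change was -0.89 (SE 0.59), and -0.06 without chow replicate 1. It was -1.54 (SE 1.44) with the stellate and fibroblast covariate and -0.27 (SE 0.57) with the endocrine one.

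Within a library, the ratio of Cdk13 to Cdk12 in CPM per kb of exon does not depend on the scaling between libraries. It was 0.371, 0.607, 0.554 and 0.517 in HFD replicates 5 to 8, against 1.19, 0.645, 1.487 and 1.496 in chow replicates 1 to 4. The level of Cdk13 was thus below that of Cdk12 in every HFD library and in chow replicate 2, and above it in the other 3 chow libraries. That crossing depends on the gene length used: with the longest transcript of each gene the ratio was 0.201 to 0.328 in HFD and 0.349 to 0.809 in chow, so that Cdk13 was below Cdk12 in all 8 libraries. The nearest values of the groups were 0.607 in HFD replicate 6 and 0.645 in chow replicate 2, whereas Cdk13 itself overlapped between the diets. For 1.82% of the 10128 other tested genes the ratio to Cdk12 was lower in every HFD library than in every chow library. The ratio averaged 0.512 ± 0.101 in HFD and 1.204 ± 0.399 in chow (SD, n = 4 each). The summed level of both kinases was 22.05 ± 2.57 CPM per kb in HFD and 31.0 ± 7.43 CPM per kb in chow, with ranges of 19.4 to 25.4 and 21.4 to 39.4 that overlapped. Since the ratio holds the Cdk13 values that led to the choice of the gene, it is not independent of them.

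**Figure D1:**
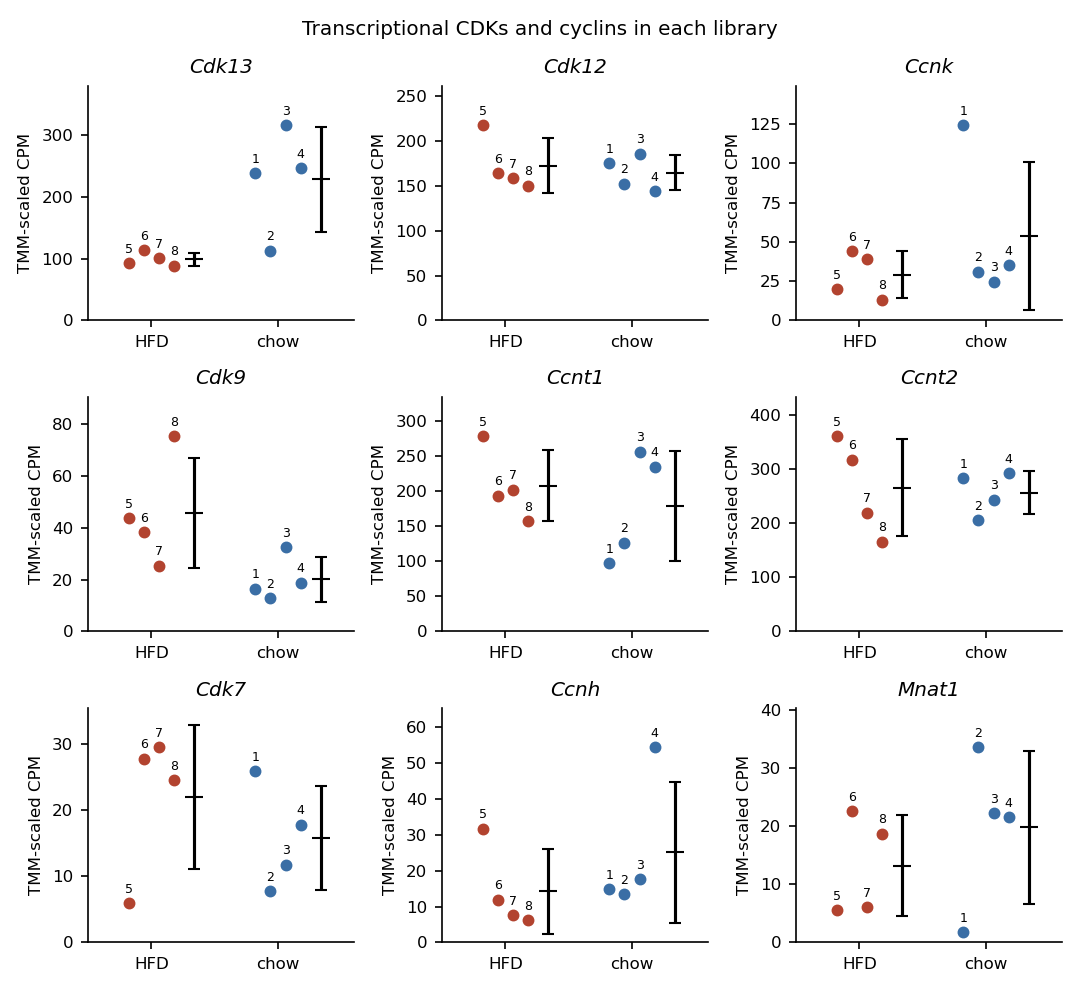
TMM-scaled CPM (y axis, from 0) of the 9 members in each HFD (red, left) and chow (blue, right) library; numbers are replicate labels, and the black mark with bars is the mean ± SD of 4 libraries. Cdk13 lies between 88.8 and 114 CPM in HFD and between 113 and 317 CPM in chow, while Cdk12 spans much the same range in both diets.

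**Figure D2:**
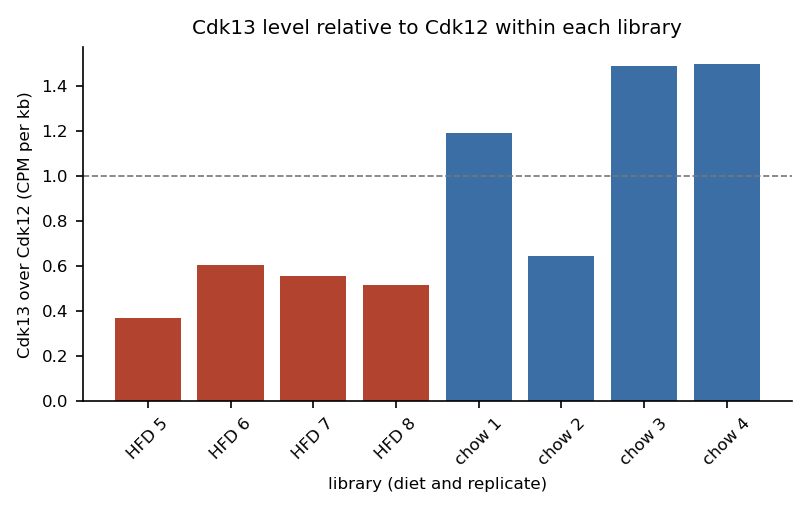
Ratio of Cdk13 to Cdk12 in CPM per kb of exon (bars, from 0) in each library, HFD in red on the left and chow in blue on the right; the dashed line marks equal levels. The HFD libraries lie between 0.371 and 0.607 and the chow libraries between 0.645 and 1.496; with the longest transcript as the length no library reaches the line, the highest being 0.809 in chow replicate 4.

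Cdk9 (chromosome 2, 32705784 to 32713076, minus strand), the kinase of P-TEFb, was the member with the highest fold change. It was at 43.5, 38.2, 25.3 and 75.3 CPM in HFD, against 16.5, 12.7, 32.5 and 18.7 CPM in chow. Of the 4 HFD libraries 3 were above every chow library, and HFD replicate 7 was below chow replicate 3. The mean was 45.6 ± 21.2 CPM in HFD and 20.1 ± 8.62 CPM in chow (SD, n = 4 each), a log2 fold change of 1.18 (SE 0.56). It was 0.83 without HFD replicate 8, the highest library. Exons of Cdk9 share 82 and 73 bases with the microRNA genes Mir2861 and Mir3960, both at 0 counts.

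The T cyclins had close means between diets. Ccnt1 (chromosome 15, 98538689 to 98570923, minus strand), which encodes cyclin T1, was at 279, 194, 202 and 157 CPM in HFD, against 97.1, 126, 256 and 235 CPM in chow, so that chow held both the lowest libraries and values close to the highest. Its log2 fold change was 0.22 (SE 0.30). Ccnt2 (chromosome 1, 127774164 to 127808061, plus strand), which encodes cyclin T2, was at 361, 317, 220 and 166 CPM in HFD, against 283, 205, 243 and 292 CPM in chow. HFD replicates 5 and 6 were above the chow range and HFD replicate 8 was below it, which gave a log2 fold change of 0.06 (SE 0.25) with an SD of 89.2 CPM in HFD and 39.8 CPM in chow. HFD replicates 5 and 8 also had the highest and the lowest stellate and fibroblast sum of that diet, and with that covariate the log2 fold change of Ccnt2 was -0.81 (SE 0.40) and that of Ccnt1 was -0.48 (SE 0.49). Per kb of exon, Cdk9 was at 0.138 to 0.534 of the summed T cyclins in HFD and at 0.0823 to 0.148 in chow, with overlap.

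The 3 genes of the CDK-activating kinase had 8 to 233 counts per library and varied widely between libraries. Per kb of exon, mean levels were above 56.0% of tested genes for Ccnh, 48.2% for Cdk7 and 31.6% for Mnat1. Cdk7 (chromosome 13, 100702631 to 100730939, minus strand), the kinase, was at 5.91, 27.7, 29.5 and 24.5 CPM in HFD, against 25.8, 7.74, 11.7 and 17.8 CPM in chow. HFD replicate 5 was the lowest library of all and the other HFD libraries were near or above the chow maximum. The log2 fold change was 0.47 (SE 0.75). It was 0.25 to 0.82 over left-out libraries and 1.19 (SE 1.43) with the stellate and fibroblast covariate. Ccnh (chromosome 13, 85189408 to 85223469, plus strand), which encodes cyclin H, was at 31.7, 11.9, 7.52 and 6.17 CPM in HFD, against 14.9, 13.5, 17.7 and 54.5 CPM in chow. HFD replicates 6 to 8 were below every chow library, HFD replicate 5 was above 3 of them, and chow replicate 4 was the highest of all. The log2 fold change was -0.81 (SE 0.78), -0.10 without chow replicate 4 and -1.55 without HFD replicate 5. It was -2.59 (SE 1.44) with the stellate and fibroblast covariate. Ccnh overlaps Rasa1 on the opposite strand by 12 exon bases, and strand is not stated for the counting. Mnat1 (chromosome 12, 73123717 to 73273988, plus strand) was at 5.52, 22.6, 6.06 and 18.7 CPM in HFD, against 1.78, 33.6, 22.2 and 21.5 CPM in chow. Chow replicate 1 had 8 counts and chow replicate 2 had 217, the lowest and highest of all libraries, and the log2 fold change was -0.58 (SE 0.88), with -0.97 to -0.20 over left-out libraries. The partners did not vary together: the ratio of Ccnh to Cdk7 in CPM per kb ran from 0.301 to 6.41 in HFD and from 0.689 to 3.66 in chow.

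**Figure D3:**
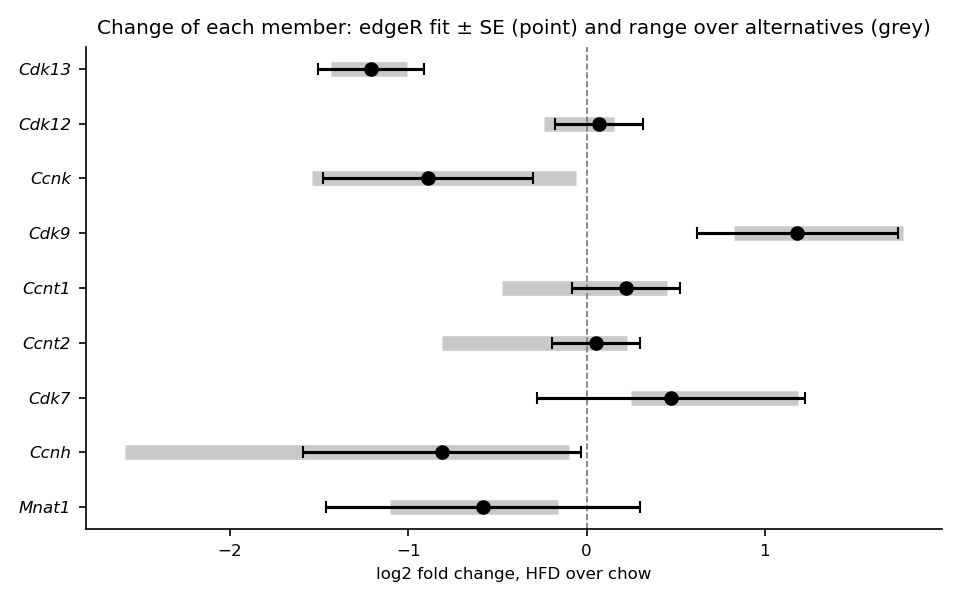
Log2 fold change of each member, HFD over chow (x axis), as the edgeR estimate ± SE (black) with the range over the 19 alternative settings in grey. The ranges of Cdk13 (-1.43 to -1.01), Cdk9 (0.83 to 1.77), Ccnk (-1.54 to -0.06), Cdk7 (0.25 to 1.19), Ccnh (-2.59 to -0.10) and Mnat1 (-1.10 to -0.16) lie on one side of 0, while those of Cdk12, Ccnt1 and Ccnt2 cross it.

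Across the 9 members, 5 were higher and 4 lower in HFD, with a median log2 fold change of 0.06, against -0.02 over all genes tested. EdgeR called 0 members at an adjusted p under 0.05, and 0 of 10129 genes (0%), with 542 genes (5.35%) at an unadjusted p under 0.05. DESeq2 called 1 member, Cdk13, and 28 of 9434 genes (0.297%). No member had groups without overlap, against 1.71% of tested genes where all HFD libraries lay below the chow libraries and 1.68% where all lay above. Because Cdk13 was chosen from this comparison, nothing is read from these counts.

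Levels of different genes were compared per kb of exon, as the mean over all 8 libraries. Ccnt2 and Ccnt1 were highest, at 21.1 CPM per kb each, above 86.3% of tested genes. Cdk12 followed at 14.3, Ccnk at 13.6 and Cdk13 at 12.2 CPM per kb, then Cdk9 at 7.12, Ccnh at 6.36, Cdk7 at 5.08 and Mnat1 at 3.06 CPM per kb. The ranges of neighbours in this order overlapped in every case. Ccnt2 exceeded Ccnt1 in 3 of 8 libraries, Ccnt1 exceeded Cdk12 in 7, and Ccnk exceeded Cdk13 in 4. By diet, Cdk13 had rank 6 of 9 in HFD, at 6.601 to 8.46 CPM per kb, and rank 4 in chow, at 8.38 to 23.5 CPM per kb. The place of Ccnk above Cdk13 rests on chow replicate 1: without that library Ccnk averaged 9.72 and Cdk13 11.4 CPM per kb, and Cdk13 had rank 3 in chow. By mean, the cyclins of P-TEFb thus had more RNA per kb than their kinase: Cdk9 was at 9.89 ± 4.605 CPM per kb in HFD and 4.36 ± 1.87 in chow. In HFD replicate 8, however, Cdk9 was at 16.3 CPM per kb, above Ccnt2 at 13.4 and just below Ccnt1 at 17.1. With the longest transcript as the length, Cdk12 had rank 2 and Ccnt1 rank 3, so the order depends on the length used.

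**Figure D4:**
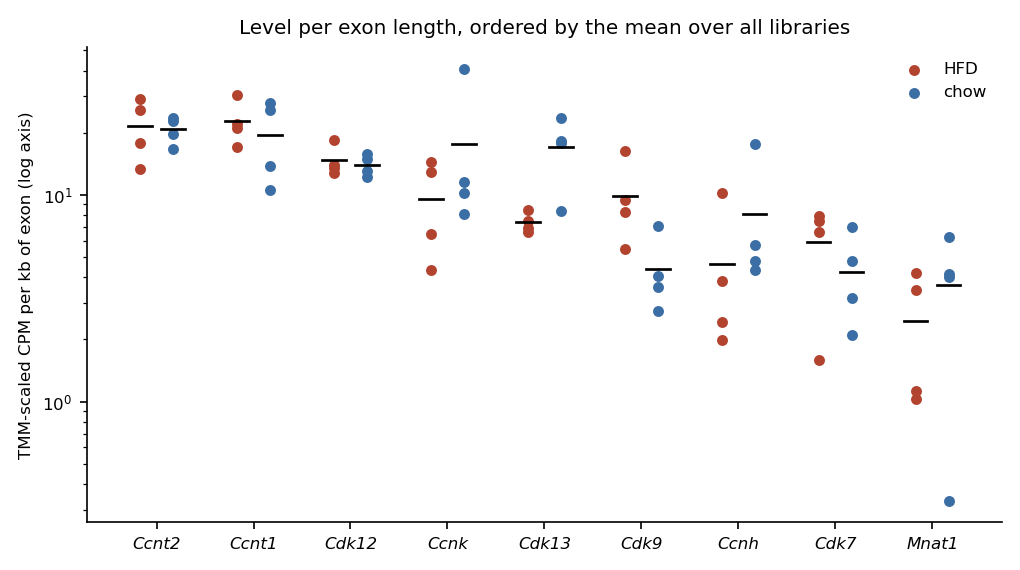
Level of each member in TMM-scaled CPM per kb of exon (log y axis), 4 HFD (red, left) and 4 chow (blue, right) libraries per gene, with black lines at the mean of each diet. The T cyclins lie highest and Mnat1 lowest, and neighbouring genes overlap.

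The spread between libraries of 1 diet differed between members. The coefficient of variation of the CPM was 49.6% to 82.7% in HFD and 49.98% to 78.2% in chow for the 3 genes of the CDK-activating kinase. Ccnk had 51.4% in HFD and 87.7% in chow, where it was the highest of the 9 members. Cdk13 had 11.2% in HFD and 37.1% in chow. On the log2(CPM + 1) scale, 5 of the 9 members had a within-diet SD above the median of genes of similar level. For Mnat1 it was 1.35, against a median of 1.12 over 1916 genes. The other 2 genes of that kinase were below the median for their level, Cdk7 at 0.874 against 1.06 and Ccnh at 0.940 against 1.03.

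Among the genes whose profile over the 8 libraries was most like that of Cdk13 were Stk24, Tmem132a, Uevld and Mapk9. Their root mean square differences from Cdk13 in centred log2(CPM + 1) were among the 5 smallest, 0.27 to 0.33, over 5420 candidates with a median of 0.88. Stk24, which encodes a STE20-type kinase, was at 63.3 ± 7.98 CPM in HFD and 114 ± 48.2 CPM in chow. Mapk9, which encodes the stress kinase JNK2, was at 54.0 ± 6.52 CPM in HFD and 97.2 ± 46.2 CPM in chow (SD, n = 4 each). Since these genes were picked for their likeness to Cdk13, itself chosen for its diet difference, their lower means in HFD follow from the choice. Of the other members Ccnt2 and Cdk12 were nearest, at 0.70 and 0.71, with 1116 and 1208 genes nearer than they were.

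The rest of the transcription machinery was followed in 10 lists with 99 genes. Of these 83 were tested, 40 higher and 43 lower in HFD, with a median log2 fold change of -0.05. EdgeR called 0 of them, with 1 at an unadjusted p under 0.05 (1.205%, against 5.35% of all tested genes), and DESeq2 called 0.

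Inhibitors and partners of P-TEFb showed no called change. In the 7SK inhibitor complex 3 of 4 genes were tested, 1 higher and 2 lower, with a median of -0.25. That median ran from -0.53 to 0.30 over left-out libraries. Hexim1, which inhibits CDK9 when bound to 7SK, was at 15.6 ± 12.3 CPM in HFD and 18.6 ± 18.1 CPM in chow. Larp7, which stabilises 7SK, was at 28.3 ± 12.7 CPM in HFD and 33.6 ± 31.3 CPM in chow, and Mepce, its capping enzyme, was at 7.93 ± 5.65 CPM in HFD and 5.70 ± 2.77 CPM in chow. The 7SK RNA itself, Rn7sk, named after its values were seen, was at 9.06, 16.7, 15.9 and 24.9 CPM in HFD, against 39.9, 24.0, 23.8 and 20.4 CPM in chow. HFD replicate 8 lay within the chow range and the other HFD libraries were below it, with a log2 fold change of -0.70 (SE 0.65, edgeR adjusted p = 0.987). It has near-identical copies in the genome, so its counts are uncertain. In the super elongation complex 7 of 9 genes were tested, 4 higher and 3 lower. Its scaffold gene Aff4 was at 248 ± 48.1 CPM in HFD and 197 ± 52.4 CPM in chow, with Eaf1 at 42.9 ± 17.6 CPM in HFD and 33.004 ± 12.6 CPM in chow, and Ell at 5.52 ± 4.48 CPM in HFD and 11.3 ± 7.51 CPM in chow.

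Other kinases and TFIIH gave mixed directions. The Mediator kinase module, where CDK8 or CDK19 sits with cyclin C on the Mediator coactivator, had 6 of 7 tested genes higher and 1 lower, with a median of 0.43. Cdk8 was at 83.1 ± 33.03 CPM in HFD and 54.1 ± 9.91 CPM in chow (log2 fold change 0.62, SE 0.40, edgeR adjusted p = 0.987), with 3 of 4 HFD libraries above all chow libraries. Med12, which activates the module, was at 104 ± 43.0 CPM in HFD and 70.4 ± 24.7 CPM in chow, and Med13l, a subunit that links it to Mediator, was at 113 ± 18.03 CPM in HFD and 83.7 ± 24.9 CPM in chow. In core TFIIH 5 of 7 genes were tested, 1 higher and 4 lower, with Gtf2h1 at 15.0 ± 2.90 CPM in HFD and 6.32 ± 5.59 CPM in chow, and Gtf2h2 at 113 ± 44.7 CPM in HFD and 140 ± 57.7 CPM in chow. Gtf2h5, its smallest subunit, was at 8.12 ± 2.72 CPM in HFD and 17.5 ± 22.2 CPM in chow. Of the 5 other transcription-linked CDK and cyclin genes 4 were higher and 1 lower. Among them Ccnl2, a cyclin linked to splicing, was at 157 ± 36.1 CPM in HFD and 142 ± 49.7 CPM in chow, Cdk10 was at 7.197 ± 4.98 CPM in HFD and 3.79 ± 3.30 CPM in chow, and its cyclin gene Ccnq was at 3.95 ± 4.50 CPM in HFD and 6.05 ± 6.39 CPM in chow.

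Most tested subunit genes of the polymerase, the substrate of these kinases, were at lower levels in HFD, with none called. Of 13 subunit genes 7 were tested, 1 higher and 6 lower, with a median of -0.78, which was -0.28 when no filter let all 13 enter, -0.33 without HFD replicate 8 and -0.38 without chow replicate 1. Polr2a, the large subunit that carries the phosphorylated tail, was at 120, 144, 98.4 and 121 CPM in HFD, against 237, 231, 225 and 133 CPM in chow. Chow replicate 4 fell among the HFD libraries and the other chow libraries were well above them. The log2 fold change was -0.78 (SE 0.27, edgeR adjusted p = 0.753). Polr2b, the second largest subunit, was at 45.5 ± 14.6 CPM in HFD and 79.3 ± 34.6 CPM in chow (edgeR adjusted p = 0.957). Polr2g, a small subunit, was at 2.56, 4.48, 3.55 and 3.98 CPM in HFD, against 5.79, 10.7, 9.87 and 10.8 CPM in chow. It was the tested gene of the 10 lists whose groups did not overlap, 1 of 83 or 1.205% beside the 1.71% of all tested genes. Pausing and elongation factors had 2 of 14 tested genes higher and 12 lower, with a median of -0.19. Rtf1, of the PAF1 complex, was at 103 ± 29.1 CPM in HFD and 136 ± 11.0 CPM in chow, Supt6 was at 69.8 ± 28.2 CPM in HFD and 99.4 ± 39.0 CPM in chow, and Paf1 was at 31.6 ± 21.5 CPM in HFD and 59.2 ± 45.6 CPM in chow. The list of phosphatases that remove these marks, which also holds the tail-binding scaffold genes Rprd1a and Rprd1b, had 5 of 8 genes higher and 3 lower. Ctdp1 was at 24.8 ± 18.7 CPM in HFD and 13.3 ± 6.91 CPM in chow, Ctdsp1 at 53.9 ± 40.6 CPM in HFD and 34.4 ± 3.22 CPM in chow, and Ctdspl at 8.47 ± 6.78 CPM in HFD and 3.13 ± 2.59 CPM in chow.

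Genes known as sensitive to joint loss of CDK12 and CDK13 were also not called. Such a list does not report on CDK13 alone. Of 15 DNA damage response genes of this kind, known mostly from human cells, 11 were tested, 7 higher and 4 lower, with a median of 0.65. That median was 0.01, -0.001, -0.05 and 0.02 without HFD replicates 5, 6, 7 and 8 in turn, 0.09 without chow replicate 1 and 0.16 without chow replicate 4, with 12 or 13 genes then tested. Fancd2, a gene of the Fanconi anaemia repair pathway that the low-count filter removed, is named after its values were seen. It was at 0 to 0.172 CPM in HFD and 0.936 to 17.2 CPM in chow, the other way from that median. Its groups did not overlap, but the share of filtered genes without overlap was not counted. The filter also removed Fanci (mean 1.31 CPM in HFD, 0.322 in chow), Fanca (0.418 and 0) and Chek1 (1.01 and 3.05), which had mixed directions. Atr, which encodes the replication stress kinase, was at 228, 104, 146 and 86.8 CPM in HFD, against 51.5, 114, 50.4 and 144 CPM in chow. HFD replicates 5 and 7 were above every chow library, though HFD replicate 7 only just, and the other 2 lay within the chow range. The log2 fold change was 0.65 (SE 0.39, edgeR adjusted p = 0.987). Palb2, a partner of BRCA2, was at 32.96 ± 34.2 CPM in HFD and 12.4 ± 10.2 CPM in chow. Brca1, a repair gene, was at 4.92, 2.41, 36.8 and 0 CPM in HFD, against 0.223, 0, 5.96 and 2.57 CPM in chow, so that 1 library per diet had no count, which allows up to 0.598 CPM in HFD replicate 8 and 0.464 CPM in chow replicate 2 by counting error alone. Among SR proteins and CLK kinases, which act in splicing, 9 of 16 were higher and 7 lower, with a median of 0.02. Clk4 was at 197 ± 49.9 CPM in HFD and 272 ± 62.9 CPM in chow (edgeR adjusted p = 0.945), Srsf1 at 209 ± 36.1 CPM in HFD and 256 ± 37.1 CPM in chow, and Srsf10 at 138 ± 17.3 CPM in HFD and 185 ± 76.9 CPM in chow (SD, n = 4 each).

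**Figure D5:**
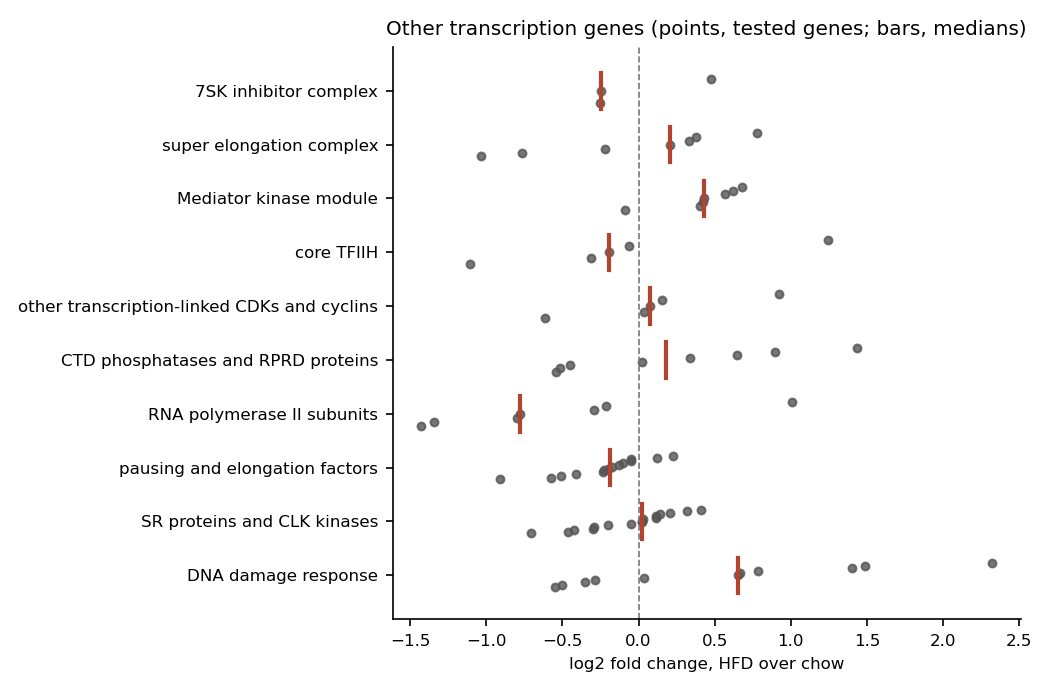
Log2 fold change, HFD over chow (x axis), of the 83 tested genes in 10 lists of other transcription genes (grey points), with the median of each list in red. Medians run from -0.78 for the polymerase subunits to 0.65 for the DNA damage response genes, and none of these genes was called.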

How the data were processed

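Per the submitters' processing notes, reads were handled with FastQC, Trim Galore and STAR on GRCm38; versions, counting program and strand setting: not given in the sources used here. What the authors deposited is a table of expected counts per Ensembl gene with no scaling across libraries. Of the values above 0, 7.66% to 8.32% per library were not whole; all were rounded. Gene positions, exon lengths and transcripts came from GENCODE M21 (GRCm38), which held 48058 of 48440 identifiers. No 2 libraries agreed within sampling noise (chi-square of at least 36.3 per degree of freedom in 28 pairs).

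HFD was compared with chow over all genes in edgeR (version 4.0.16) by its quasi-likelihood test, with TMM, filterByExpr and a robust fit, two-sided, with Benjamini-Hochberg adjustment at 0.05. Levels are TMM-scaled CPM. A count of 0 allows up to 0.464 to 0.702 CPM per library, taken as 3 counts; intervals and floors cover counting error only, since reads carried no stated molecular identifiers. Libraries are pools of 2 mice, and nothing in the sources says how pools were formed. Alternatives used DESeq2 (version 1.42.0), limma (version 3.58.1), other scalings, filters, covariates and left-out libraries. The stellate and fibroblast covariate was the mean log2(CPM + 1) of the markers, the acinar and endocrine ones the log2 of the sum. The edgeR step was tested on simulated data, where many changed genes were not called. A gene that was not called may therefore still differ. R (version 4.3.3) and Biopython (version 1.88) were used. Members and lists were chosen with earlier results of these data known. Named context genes are the 3 tested genes of each list with the smallest p; those most like Cdk13 were taken from genes with a mean of at least 20 CPM. Some genes of these lists are not reported here.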

Additional observations from a re-analysis of the deposited data

Results flagged for a closer look

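In groups of 4 libraries, 1 library stood apart from the other 3 in 7 cases, with a gap to its nearest neighbour above Dixon's critical value; chance gives such a gap in about 1 of 20 groups, and 96 groups were screened. Ccnk was at 124 CPM in chow replicate 1, against 24.7 to 35.1 CPM in the other chow libraries. Ccnh was at 54.5 CPM in chow replicate 4, against 13.5 to 17.7 CPM. Gtf2h5 was at 50.4 CPM in chow replicate 3, against 2.00 to 10.1 CPM, and Cdk10 at 8.69 CPM in chow replicate 1, against 1.44 to 2.57 CPM. Polr2a was at 133 CPM in chow replicate 4, against 225 to 237 CPM. Paf1 was at 128 CPM in chow replicate 2, against 35.0 to 38.4 CPM. Brca1 was at 36.8 CPM in HFD replicate 7, against 0 to 4.92 CPM in the other HFD libraries.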

How the results depend on the processing

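EdgeR's count of 0 called genes became 45 with no low-count filter, 28 with DESeq2 and 1 with limma-voom, and ran from 0 to 11 when 1 library was left out. Cdk13 kept its direction in all 19 settings (-1.43 to -1.01) and was called in 2, with no low-count filter (-1.20) and with DESeq2 (-1.21); it was chosen from this comparison, so neither is independent evidence. With the stellate and fibroblast covariate log2 fold changes of Cdk12 (-0.24, SE 0.43), Ccnt1 (-0.48, SE 0.49) and Ccnt2 (-0.81, SE 0.40) turned negative. The sum of those markers was above the chow range in HFD replicates 5 to 7. This covariate is thus hard to separate from diet, and the part of those cells in these shifts was not tested. Over left-out libraries Cdk12 ran from -0.060 to 0.13 and Ccnt2 from -0.12 to 0.23. The other 6 members kept their sign, though with the stellate and fibroblast covariate Ccnh moved to -2.59 (SE 1.44) and Ccnk to -1.54 (SE 1.44). The same covariate moved Cdk9 to 1.77 (SE 0.83), Cdk7 to 1.19 (SE 1.43) and Mnat1 to -0.16 (SE 1.54). With the endocrine covariate Ccnk moved to -0.27, Cdk7 to 0.78 and Mnat1 to -1.10. The stellate and fibroblast covariate also gave list medians of -1.35 (7SK complex), 0.22 (Mediator kinase module), 1.23 (core TFIIH) and -1.22 (polymerase subunits). It gave -0.54 (pausing and elongation factors), -0.33 (SR proteins and CLK kinases) and -0.70 (DNA damage response). The endocrine covariate gave 0.47 for the 7SK complex, no filter gave -0.28 for the polymerase subunits, and for the DNA damage response genes the 5 CPM filter gave 0.037 and limma-voom 0.12. Over left-out libraries the medians ran from -0.90 to 0.19 for core TFIIH, -0.040 to 0.49 for the list of CTD phosphatases and RPRD proteins, -0.90 to -0.33 for polymerase subunits, -0.090 to 0.086 for SR proteins and CLK kinases and -0.051 to 0.78 for DNA damage response genes. The range was -0.53 to 0.30 for the 7SK complex, -0.031 to 0.28 for the super elongation complex and -0.10 to 0.26 for other transcription-linked CDKs and cyclins. For the Mediator kinase module it was 0.36 to 0.55, and for pausing and elongation factors -0.32 to -0.15. With the longest transcript as length, log2 CPM per kb was 4.82 for Cdk12 and 5.05 for Ccnt2, and the mean ratio of Cdk13 to Cdk12 was 0.277 in HFD and 0.651 in chow. That ratio and the means without chow replicate 1 were added after seeing the data. The causes were not tested. No paired analysis was possible because no replicate number is shared between the diets.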
